A study of Mus musculus with 6 samples.

Results

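The 9 genes described here code for the receptors of type I interferon (Ifnar1, Ifnar2) and of interferon gamma (Ifngr1, Ifngr2), the receptor-bound kinases Jak1, Jak2 and Tyk2, and the feedback inhibitors Socs1 and Socs3. They were taken by name from a deposited count table of 23791 named genes, and all 9 passed the filter on low counts that left 13832 genes for testing. RNA was sequenced from 6 libraries of RM1, a mouse prostate cancer line from C57BL/6 mice. The groups were RM1536 cells from the femur (called bone, 1 library), RM1536 cells from the lung (1 library), RM1536 in culture (libraries a and b) and unlabelled RM1 in culture (libraries a and b). RM1536 is RM1 that carries eCFP and the luciferase luc2 and was pooled from several clones. Both recovered samples were taken from a single mouse 16 days after intracardiac injection of cells stained with the dye PKH26, and held the PKH-negative, dividing fraction. Per the labels, cells were sorted and expanded in culture before RNA extraction, so the bone and lung libraries describe cells that had been cultured again after recovery, and both sites rest on the same animal. The labels do not say whether libraries a and b are separate cultures, so p-values measure only the spread between these libraries, which may be technical.

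Interferons signal through pairs of receptor chains that hold JAK kinases on their inner side. Type I interferons bring IFNAR1, which carries TYK2, together with IFNAR2, which carries JAK1, and interferon gamma brings IFNGR1, with JAK1, together with IFNGR2, with JAK2. The activated kinases phosphorylate STAT proteins, which enter the nucleus and switch on interferon target genes through an interferon-stimulated response element or a gamma-activated site. SOCS1 and SOCS3 are induced by the same cytokines and bind and block JAK kinases, SOCS1 chiefly in interferon signalling and SOCS3 chiefly at receptors that share the gp130 chain. In tumour cells this pathway is known for its control of antigen presentation and growth.

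The windows before the RefSeq starts of 3 of the 9 genes held such an element. Those of Socs1 and Socs3 are shown because their fold changes were of opposite sign in the recovered cells. That of Ifnar2 is shown because the gene belongs to the receptor cluster described below. The 250 bases before each start site (RefSeq, GRCm38.p6) were searched on both strands for the core of the interferon-stimulated response element (GAAA, any 2 bases, GAAA), TTCNNNGAA (gamma-activated site) and TTCCNGGAA (a stricter form of the same site, so each match is also a match of TTCNNNGAA). Matches are in capitals. The first is the whole window before Socs1 (chr16:10785537-10785786, minus strand), the next is the window before Ifnar2 (chr16:91372533-91372782, plus strand), and the last is a 30-base stretch before the RefSeq start of Socs3 (chr11:117969502-117969531, minus strand).
Socs1: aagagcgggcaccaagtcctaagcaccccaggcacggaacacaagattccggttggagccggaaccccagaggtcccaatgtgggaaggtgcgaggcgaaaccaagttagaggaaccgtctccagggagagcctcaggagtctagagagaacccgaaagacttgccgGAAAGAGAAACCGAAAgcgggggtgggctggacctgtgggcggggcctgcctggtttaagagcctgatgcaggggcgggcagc
Ifnar2: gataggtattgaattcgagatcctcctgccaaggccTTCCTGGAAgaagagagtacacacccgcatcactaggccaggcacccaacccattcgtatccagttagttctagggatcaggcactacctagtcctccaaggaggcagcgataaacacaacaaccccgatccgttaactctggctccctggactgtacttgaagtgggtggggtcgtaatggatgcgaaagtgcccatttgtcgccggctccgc
Socs3: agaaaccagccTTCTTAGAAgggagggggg
Socs1 had 2 overlapping matches of the response element core, between 83 and 68 bases before its start, a motif present in 2.98% of 32851 promoters of the same length. Socs3 had 1 match of TTCNNNGAA (7.02% of promoters), 154 to 146 bases before its RefSeq start. GENCODE places Socs3 at 117966079 to 117970047, so this window lies inside the gene there and overlaps its exons. The match may thus lie in transcribed sequence. Ifnar2 had 1 match of TTCCNGGAA (0.913% of promoters), 214 to 206 bases before its start. None of these letters occurred in the windows of Ifnar1, Ifngr1, Ifngr2, Jak1, Jak2 or Tyk2. A match is a description of the letters and not evidence of binding.

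Depth was 22763835 to 30303566 counts per library, and levels are given as CPM, each gene's count relative to its library's total after scaling by TMM factors of 0.942 to 1.03. The defining leukocyte marker Ptprc was at or below 0.0668 CPM in every library, while Lyz2 stood at 2.68 CPM in bone and 2.88 in lung, against 0 in all 4 culture libraries. The 11 leukocyte markers with a row in the table summed to 25.9 CPM in bone, 24.0 in lung, 11.6 and 4.08 in RM1536 and 11.6 and 45.5 in RM1, mostly from Cd68. The 4 stromal fibroblast markers summed to 656 CPM in lung and to 23.4 to 80.2 CPM elsewhere, and they did not move together. Col1a1 had 604 CPM in lung and 0.790 to 27.8 elsewhere, and Pdgfra was also highest in lung (28.3 CPM), while Dcn had 24.3 CPM in lung against 57.8 in RM1536 a, and Lum was lowest in lung (0.118 CPM). Osteoblast and osteoclast markers, mostly Runx2, summed to 85.9 CPM in bone, 82.2 in lung and 48.2 to 59.5 in culture. Markers of erythroid cells, endothelium and lung epithelium summed to at most 1.66 CPM in any library. Of the prostate epithelial markers, Krt8 (966 to 2366 CPM) and Krt18 (275 to 458 CPM) were high and Epcam was at most 1.33 CPM. The part of these markers in the results below was not tested. In bulk RNA, fewer cells of a type and less RNA per cell cannot be told apart.

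All 9 genes were expressed in all 6 libraries, with between 185 and 6212 reads per gene and library. Per kilobase of exon length, the kinase gene Jak1 had the highest level in every library, at 17.7 CPM per kb in bone, 22.4 in lung, 17.9 and 21.2 in RM1536, and 28.7 and 23.7 in RM1. Socs1 had the lowest, at 3.06 in bone, 2.51 in lung, 3.15 and 3.46 in RM1536, and 7.03 and 5.55 in RM1. Averaged over the 6 libraries the order was Jak1 (21.9 CPM per kb), Ifnar1 (13.0), Ifngr2 (12.6), Jak2 (11), Socs3 (10.1), Ifngr1 (8.12), Tyk2 (7.13), Ifnar2 (6.10) and Socs1 (4.13). The range of Jak1 over the libraries did not overlap that of Ifnar1 (10 to 17.2). From Ifnar1 down, the range of each gene over the 6 libraries overlapped that of the next in this order. These ranges mix the groups. Within each library Socs1 ranked last, while the order of the genes between Jak1 and Socs1 varied, so those ranks are not separated. Jak1 had a higher level per kb than 82.1% of the 13399 tested genes with a known exon length, and Socs1 than 46.0%.

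**Figure D1:**
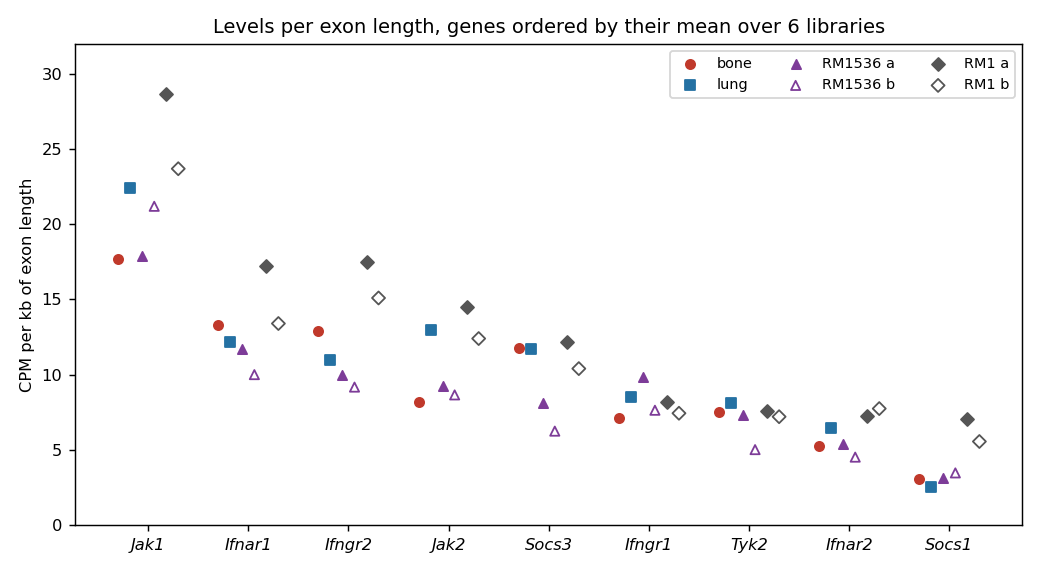
Level of each gene in CPM per kb of exon length (y axis), with 1 symbol per library and genes in the order of their mean over 6 libraries. Jak1 lies on top at 17.7 to 28.7 and Socs1 at the bottom at 2.51 to 7.03, with overlapping ranges between them.

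RM1536 in culture was set against RM1 in culture to compare the labelled, pooled-clone line with its parent. Of the signalling genes 8 lay lower in RM1536, by less than 2-fold each: 8 of 9 had a negative log2 fold change (48.6% of all genes tested) and their median was -0.59, beside 0.02 over all genes tested. None of the 9 passed edgeR's quasi-likelihood test at an adjusted p under 0.05, where 5.64% of all genes were called. At an unadjusted p under 0.05 there were 5 (Ifngr2, Socs1, Jak2, Socs3 and Ifnar2), all lower, where 23.0% of all genes passed and 12.5% were lower. DESeq2 called 1 (Ifngr2, adjusted p = 0.0292), limma-voom 0, and edgeR without a filter on low counts 2 (Ifngr2, 0.0387, and Socs1, 0.0449). In 7 of the 9 genes both RM1536 libraries lay below both RM1 libraries, against 26.9% of all genes tested.

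Among the receptor chains, Ifngr2, the chain that brings JAK2 to the interferon gamma receptor, stood at 37.5 and 34.6 CPM in RM1536, against 65.8 and 56.8 CPM in RM1. The groups did not overlap, and duplicates differed by at most 0.21 on the log2 scale. Its log2 fold change was -0.77 ± 0.20 (SE, n = 2 and 2, edgeR adjusted p = 0.0917). Ifngr1, the chain that binds interferon gamma, was the exception, with 28.1 and 21.7 CPM in RM1536 and 23.2 and 21.2 CPM in RM1. Those groups overlapped (0.17 ± 0.23, edgeR adjusted p = 0.728), and the sign turned without RM1536 a (-0.06). The ratio of Ifngr2 to Ifngr1 per kb was 1.01 and 1.2 in RM1536 and 2.14 and 2.03 in RM1, with 1.81 in bone and 1.29 in lung.

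Ifnar1, which carries TYK2 in the type I receptor, stood at 69.3 and 59.4 CPM in RM1536, against 102 and 79.8 CPM in RM1. Its partner Ifnar2 had 17.9 and 15 CPM in RM1536, against 24.1 and 25.8 CPM in RM1. Both pairs of groups were apart, with the RM1536 libraries lower, and neither gene passed the test (Ifnar1 -0.50 ± 0.22, Ifnar2 -0.60 ± 0.22, n = 2 and 2, edgeR adjusted p = 0.252 and 0.186). The ratio of Ifnar1 to Ifnar2 per kb ran from 1.74 (RM1 b) to 2.54 (bone) with no order by group.

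The kinase gene Jak1, used by both receptors, had 129 and 153 CPM in RM1536, against 207 and 171 CPM in RM1. Jak2 stood at 46.5 and 43.5 CPM in RM1536 and at 72.9 and 62.5 CPM in RM1. Tyk2 had 50.2 and 34.4 CPM in RM1536 and 52.3 and 49.4 CPM in RM1. For Jak1 and Jak2 both RM1536 libraries were lower than both RM1 libraries, while for Tyk2 the libraries RM1536 a and RM1 b overlapped. The log2 fold changes were -0.42 ± 0.22, -0.59 ± 0.20 and -0.27 ± 0.25 (edgeR adjusted p = 0.310, 0.157 and 0.575). Tyk2 shares 554 exon bases (8.07% of its exon length) with the antisense gene 1700084C06Rik, whose reads cannot be told apart from those of Tyk2 there because the strand setting is not given.

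The inhibitor genes had the lowest and the third lowest fold change of the 9. Socs1 stood at 9.17 and 10.1 CPM in RM1536, against 20.4 and 16.1 CPM in RM1. Every RM1536 library was lower than every RM1 library, with a log2 fold change of -0.93 ± 0.26 (edgeR adjusted p = 0.104). Socs3 had 23.5 and 18.1 CPM in RM1536, against 35.2 and 30.1 CPM in RM1, again without overlap (-0.65 ± 0.24, edgeR adjusted p = 0.177). Leaving out any 1 culture library kept the log2 fold change of Socs1 between -1.09 and -0.78 and that of Socs3 between -0.88 and -0.49.

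**Figure D2:**
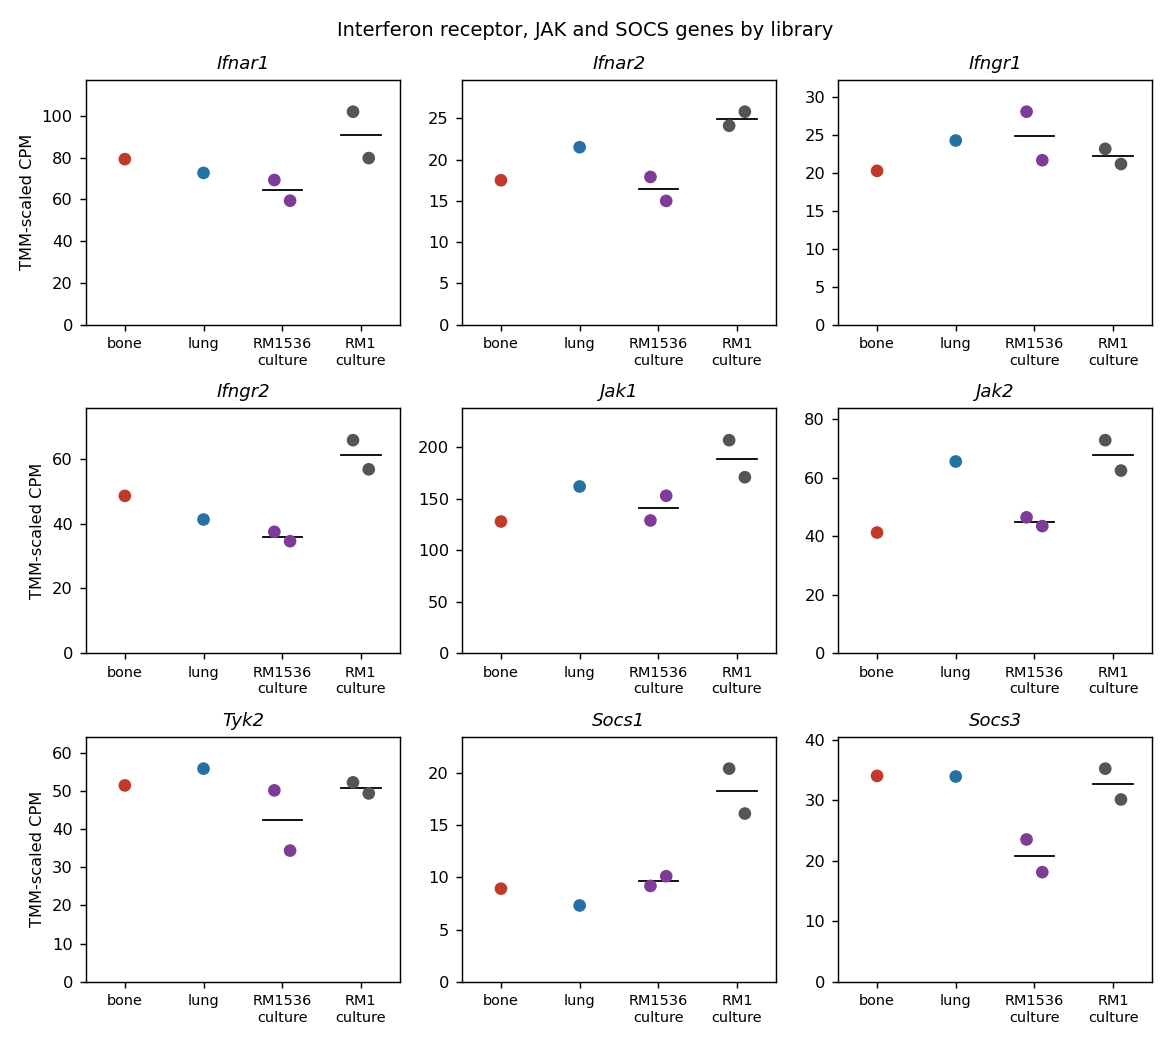
TMM-scaled CPM (y axis, from 0) of each of the 9 genes by group (x axis), with 1 point per library and a line at the mean of each culture pair; bone and lung have 1 library each. Socs1 sits between 7.30 and 10.1 in all 4 RM1536 libraries, below 16.1 and 20.4 in RM1, while Socs3 in bone (34.0) and lung (33.9) lies above both RM1536 culture libraries.

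The next comparisons ask how cells recovered from bone or lung differ from the injected line, and they share the RM1536 culture libraries. None of the 9 genes passed in bone against RM1536 (0.0145% of all genes called) or in lung against RM1536 (0% called). DESeq2 and limma-voom called 0 in either. At an unadjusted p under 0.05 there was 1 gene in each, Socs3, where 9.92% of all genes passed in bone and 13.8% in lung. Socs3 stood at 34.0 CPM in bone and 33.9 CPM in lung, against 23.5 and 18.1 CPM in RM1536. Both recovered libraries were higher than both culture libraries and lay within the range of RM1 (30.1 to 35.2 CPM). The log2 fold change was 0.71 ± 0.28 in bone and 0.71 ± 0.28 in lung (n = 1 and 2, edgeR adjusted p = 0.494 and 0.361). With 1 library per site, the fit takes the spread of the duplicates in culture as that of bone and lung.

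Socs1 lay on the other side, with 8.91 CPM in bone and 7.30 CPM in lung, both below the 9.17 and 10.1 CPM of RM1536. These differences were small against their errors (-0.11 ± 0.32 in bone, -0.40 ± 0.32 in lung, edgeR adjusted p = 0.955 and 0.594). The ratio of Socs3 to Socs1 per kb was 3.84 in bone and 4.68 in lung, against 2.58 and 1.80 in RM1536 and 1.73 and 1.88 in RM1. Both recovered libraries thus had a higher ratio than any of the 4 culture libraries.

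Of the receptor chains, Ifngr2 had 48.6 CPM in bone and 41.3 in lung, and Ifnar1 had 79.3 in bone and 72.7 in lung. Both genes lay above both RM1536 culture libraries at both sites. Their log2 fold changes were 0.43 ± 0.24 and 0.30 ± 0.27 in bone and 0.20 ± 0.25 and 0.17 ± 0.27 in lung (edgeR adjusted p = 0.664, 0.820, 0.732 and 0.787). Ifnar2 had 17.5 CPM in bone, between the RM1536 culture libraries, and 21.5 in lung, above both. Ifngr1 had 20.3 CPM in bone, below both, and 24.3 in lung, between them. In 4 of the 9 genes (Ifnar1, Ifngr2, Tyk2 and Socs3) both recovered libraries lay above both RM1536 culture libraries, against 19.7% of all genes tested. In 1 gene (Socs1) both lay below, against 21.4%.

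The kinase genes Jak1, Jak2 and Tyk2 lay lower in bone than in lung. Jak3, a JAK kinase gene outside this set, lay higher in bone, at 11.8 CPM against 7.58 in lung (log2 fold change 0.64 ± 0.34). For Tyk2 the difference between bone and lung was within its error (-0.12 ± 0.35), and for Jak1 it was about the size of its error (-0.34 ± 0.31). The share of all genes lower in bone was not counted. Jak2, which serves the interferon gamma receptor and the receptors of growth hormone and many cytokines, had 41.3 CPM in bone and 65.6 CPM in lung, with 46.5 and 43.5 in RM1536. The bone library was thus a little below the culture pair and the lung library was within the range of RM1 (62.5 to 72.9 CPM). Jak1 had 128 CPM in bone and 162 CPM in lung, and Tyk2 had 51.5 and 55.9 CPM. Log2 fold changes against RM1536 were -0.12 ± 0.25 in bone and 0.54 ± 0.24 in lung for Jak2, -0.15 ± 0.27 and 0.20 ± 0.26 for Jak1, and 0.29 ± 0.30 and 0.40 ± 0.30 for Tyk2 (edgeR adjusted p from 0.387 to 0.928).

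The study's title asks about expression in bone, which bone against lung addresses with 1 library on each side. None of the 9 genes passed (0.00723% of all genes called), and 0 had an unadjusted p under 0.05 (8.47% of all genes). DESeq2 and limma-voom called 0. The largest difference was that of Jak2, with 941 reads in bone and 1663 in lung, a ratio of 0.629 (exact 95% interval 0.580 to 0.682, counting error only). With the spread of the culture duplicates, the log2 fold change was -0.67 ± 0.29 (edgeR adjusted p = 0.594). Jak1 (ratio 0.789), Ifnar2 (0.812), Ifngr1 (0.836) and Tyk2 (0.922) were also lower in bone, and Ifngr2 (1.18) and Ifnar1 (1.09) higher, with counting intervals that did not hold a ratio of 1. The interval of Socs1 (1.22, 0.995 to 1.5) did. Socs3 was level, at a ratio of 1.00 (0.909 to 1.11). The share of all genes with a counting interval that leaves out 1 was not counted. With the spread of the culture duplicates, edgeR gave log2 fold changes of -0.34 ± 0.31 for Jak1, -0.30 ± 0.32 for Ifnar2 and -0.26 ± 0.33 for Ifngr1. For Tyk2 it gave -0.12 ± 0.35, for Ifngr2 0.24 ± 0.29 and for Ifnar1 0.13 ± 0.31. With 1 library per site, the ratios cannot be told apart from differences between single libraries.

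**Figure D3:**
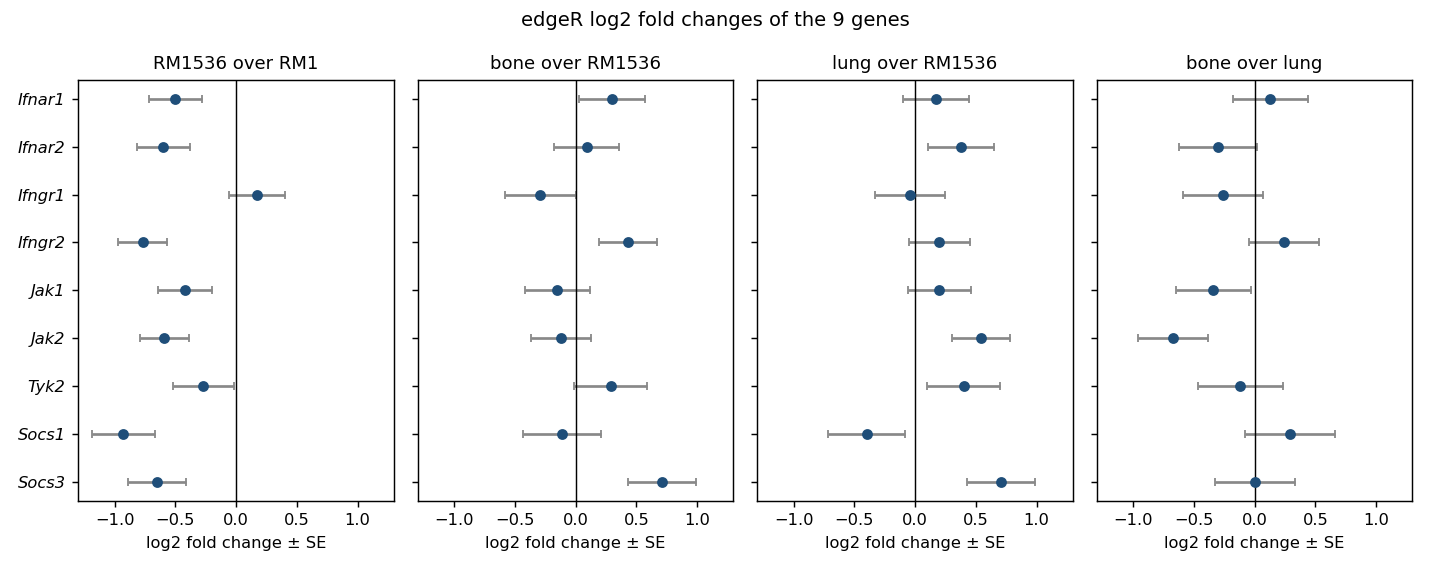
Log2 fold change with SE from edgeR (x axis) of the 9 genes in each of the 4 comparisons, with the group named first on top of the ratio. The negative values in RM1536 against RM1 lie between -0.93 (Socs1) and -0.27 (Tyk2), with Ifngr1 at 0.17; Socs3 stands at 0.71 in bone and in lung, and none passed edgeR's adjusted test with the low-count filter.

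Set against RM1, 5 of the 9 genes (Ifnar1, Ifnar2, Ifngr2, Jak1 and Socs1) were lower in all 4 RM1536 libraries than in both RM1 libraries, against 18.3% of all genes tested. After these values were seen, the mean of the RM1536 culture, bone and lung groups was tested against RM1 in the same fit. Socs1 was called, at -1.10 ± 0.22 (edgeR adjusted p = 0.0326), the only 1 of the 9, where 10.8% of all genes were called and 7.24% were lower. The call ended without any 1 of the 4 culture libraries (log2 fold change -1.26 to -0.94, adjusted p from 0.0516 to 0.196). Ifngr2 was next, at -0.56 ± 0.18 (adjusted p = 0.107). Socs1 was the only gene of the 9 that ranged over at least 1 on the log2 scale across the 6 libraries. Its range was 1.42 in log2 CPM with 0.5 CPM added to each value. Among 9877 genes with a mean of at least 5 CPM, those with the most similar pattern were Tex10, Nudt14 and Cd151. Their root mean square differences from Socs1, in centred log2 CPM with the same 0.5 added, over the 6 libraries, were 0.072, 0.089 and 0.103. Tex10, for example, had 46.7 CPM in bone, 40.1 in lung, 44.8 and 52.8 in RM1536, and 94.3 and 84.5 in RM1. Within the 9 genes the most similar pair by the same measure was Ifnar1 with Ifngr2 (0.127) and the least similar was Ifngr1 with Socs1 (0.554).

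Ifnar2, Ifnar1 and Ifngr2 lie close together on chromosome 16 (GENCODE M21, GRCm38), at 91372783 to 91405589, 91485238 to 91507441 and 91547072 to 91565623, all on the plus strand. The fourth receptor gene there is Il10rb, at 91406164 to 91425834, which codes for a chain of the receptors for interleukin 10 and type III interferon. Il10rb had 10.9 and 6.57 CPM in RM1536, against 18.3 and 18.5 CPM in RM1 (-1.08 ± 0.32, edgeR adjusted p = 0.115), and 8.60 in bone and 10 in lung. All 4 receptor genes of the cluster were lower in every RM1536 library than in either RM1 library, as were 18.3% of all genes tested. For Ifnar1 the margin was small, with 79.3 CPM in bone against 79.8 CPM in RM1 b. The 11 listed neighbours with values, Il10rb among them, had a median log2 fold change of 0.08, and 4 of them were below 0; the median was -0.15 without RM1 b and -0.18 without RM1536 b. EdgeR, DESeq2 and limma-voom called 0 of these, and edgeR without the low-count filter called 3. Tmem50b, the next gene after Ifngr2, had 9.09 and 7.80 CPM in RM1536 and 9.62 and 6.12 CPM in RM1 (0.10 ± 0.32, edgeR adjusted p = 0.889, named with its value known). Ifnar2 shares 315 exon bases (9.46%) with the gene Gm21970 on the same strand, which has no row in the table.

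**Figure D4:**
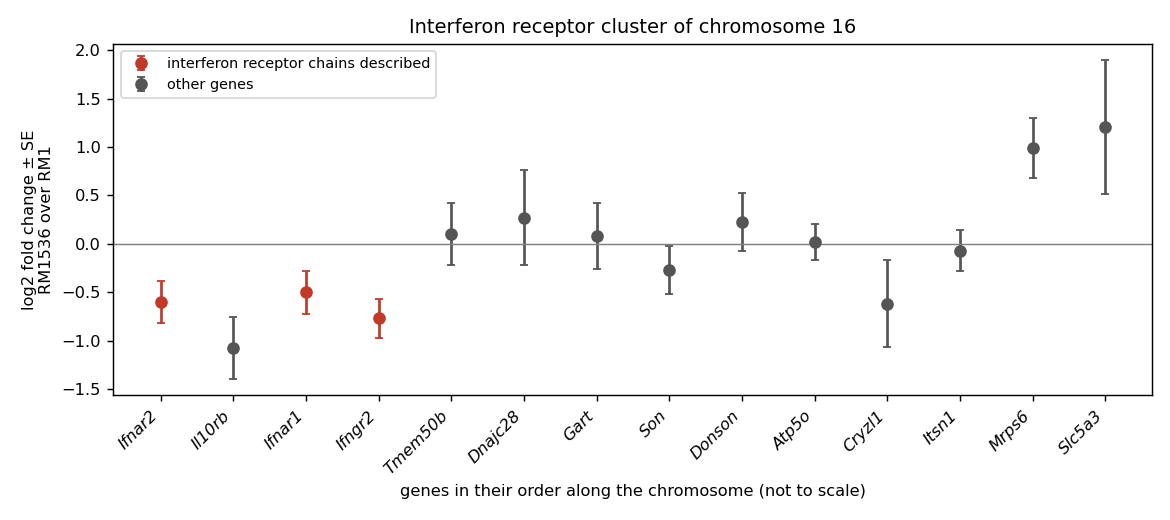
Log2 fold change of RM1536 over RM1 with SE (y axis) for genes in their order along chromosome 16, not to scale. The 4 receptor genes on the left lie between -1.08 (Il10rb) and -0.50 (Ifnar1), Tmem50b next to them at 0.10, and none of the genes shown passed edgeR's adjusted test with the low-count filter.

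Transcripts of those interferons that had a row in the table were close to absent. Only 6 of 20 listed interferon genes had one, so the levels of the rest are unknown. The 6 interferon genes with a row in the table had 19 reads in all, of which the type I interferon gene Ifnb1 had 12: 0 in bone and lung, 1 and 0 in RM1536 and 5 and 6 in RM1. Ifng had 0 reads in every library. Ifnlr1, the specific chain of the type III interferon receptor, had 0 reads in the 4 RM1536 libraries against 12 and 16 in RM1 (edgeR adjusted p = 0.0681). It was picked for mention with these reads known. With reads in RM1 only, it entered the test through RM1 and could be called only as lower in RM1536.

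Downstream of the receptors the differences were larger. The 7 tested genes for STAT proteins and Irf9 had a median of -0.90, with all 7 below 0. Of 12 type I interferon targets, 3 fell and 0 rose (median -3.47): the antiviral enzyme gene Rsad2 (-7.31 ± 1.2, edgeR adjusted p = 0.0291), the nucleotide kinase gene Cmpk2 (-6.67 ± 0.98, 0.0220) and the antiviral synthetase gene Oas1a (-4.57 ± 0.84, 0.0382). Of 8 tested interferon gamma targets, 2 fell and 0 rose (median -3.05): Nlrc5, an activator of MHC class I genes (-3.84 ± 0.49, 0.0165), and the transcription factor gene Irf8 (-3.29 ± 0.33, 0.0101). All 8 were below 0, but Irf1 of this list hardly differed (-0.07 ± 0.24, edgeR adjusted p = 0.897, named with its value known). DESeq2 called 7 type I and 3 interferon gamma targets, limma-voom 7 and 4, and edgeR without the low-count filter 12 and 7. The same targets differed between the RM1536 duplicates: the median level of the type I list was 25.3 CPM in RM1536 a and 3.22 in RM1536 b, against 177 and 307 CPM in RM1, with 3.01 in bone and 7.97 in lung. Without RM1536 a, 11 type I targets and 6 interferon gamma targets were called (medians -6.14 and -4.80); without RM1536 b, 5 and 2 (medians -2.58 and -2.30); without RM1 a, 5 type I targets were called. Over the 9 receptor, kinase and inhibitor genes, those duplicates differed by at most 0.54 on the log2 scale (Tyk2).

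**Figure D5:**
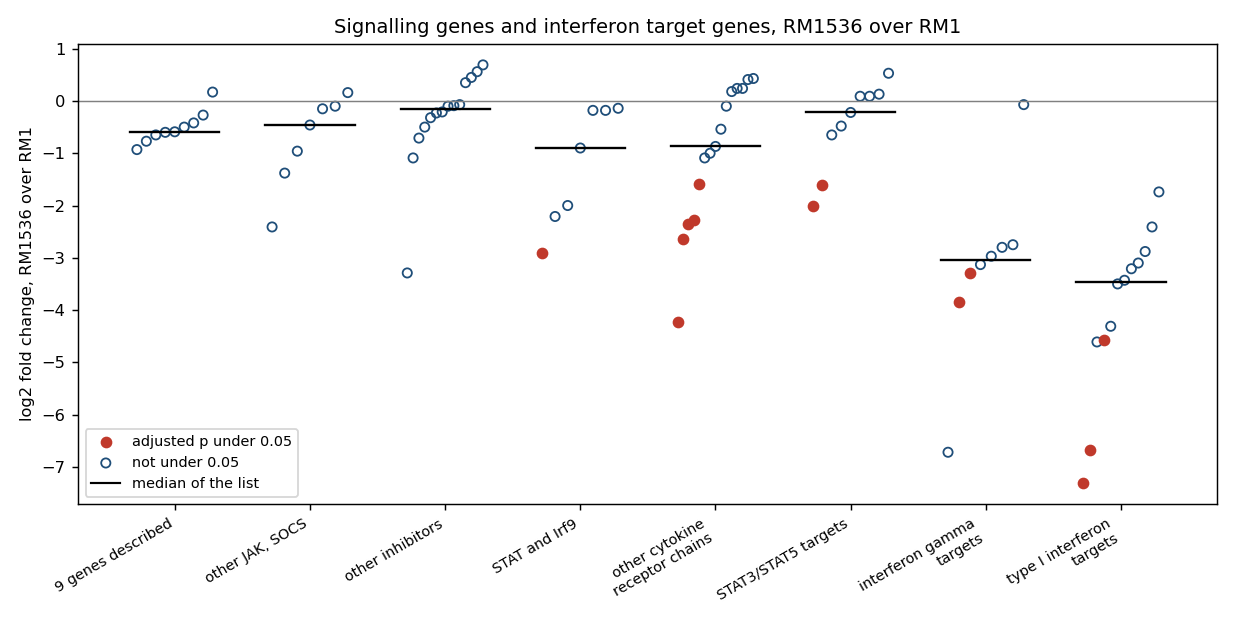
Log2 fold change of RM1536 over RM1 (y axis) for each tested gene, by list (x axis), with filled points for an adjusted p under 0.05 and a line at each median. The 9 signalling genes have a median of -0.59, against -3.05 for interferon gamma targets and -3.47 for type I interferon targets.

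Other genes of the pathway were counted in the same fit of RM1536 against RM1. Of 7 other JAK and SOCS genes (Jak3, Cish and Socs2 to Socs7 other than Socs3), edgeR called 0, 6 were below 0 and the median was -0.46; DESeq2 called 2, limma-voom 0 and edgeR without the low-count filter 3. Of 14 tested inhibitors of other kinds (phosphatases, PIAS, SH2B and CBL proteins and Usp18) edgeR, DESeq2 and limma-voom called 0 and the median was -0.16. Without RM1536 a, or without the low-count filter, edgeR called 1. Of 15 tested chains of other cytokine receptors that use JAK kinases, 5 fell and 0 rose by edgeR, with a median of -0.87; DESeq2 and limma-voom called 5 and edgeR without the filter 7. These were Il13ra1 (-2.28 ± 0.20, edgeR adjusted p = 0.00871) and Il4ra (-1.58 ± 0.24, 0.0238), the chains of the receptor shared by interleukins 4 and 13. The others were Il12rb1 (-2.65 ± 0.29, 0.0129), Il15ra (-4.23 ± 0.52, 0.0146) and the granulocyte-macrophage factor receptor chain Csf2ra (-2.36 ± 0.31, 0.0175). Il15ra had 6 reads in bone, 9 in lung, 9 and 6 in RM1536, and 138 and 165 in RM1. It stayed in the test through its reads in RM1, so it could hardly be called except as lower in RM1536. Il13ra1 had 21.4 and 20.1 CPM in RM1536, against 96.6 and 104 CPM in RM1, and 13.2 in bone and 9.51 in lung. Without RM1536 b, only Il13ra1 of the list was called, and without RM1536 a, Csf2ra and Il4ra lost their call. Of 9 tested targets of STAT3 and STAT5, 2 fell and 0 rose: Bcl3 (-2.0 ± 0.32, 0.0283) and Junb (-1.61 ± 0.27, 0.0318), with a median of -0.22. Leaving out RM1 b or RM1536 b left 0 called genes in that list and turned its median to 0.03 and 0.01; leaving out RM1 a or RM1536 a left 1. The 10 tested ligands of these receptors had a median of -1.13 (-0.07 without RM1 b, over the 8 ligands still tested). EdgeR and limma-voom called 0 of the 10, DESeq2 called 4 and edgeR without the filter 6. Leaving out RM1 a or RM1 b gave 1. Il20rb, Il10rb and Ifnlr1 were the tested chains of the interleukin 10 receptor family, with a median of -1.08. The median was -0.32 without RM1 b, over the 2 chains still tested, and -1.52 without RM1536 a. These chains were not called by edgeR or DESeq2. Limma-voom called 1 of them and edgeR without the filter 2. In the fit with the low-count filter, edgeR called 0 of the genes of these lists in the other 3 comparisons, as did limma-voom. Counted once each, DESeq2 called 9 in bone against RM1536, 5 in lung against RM1536 and 3 between bone and lung, and edgeR without the filter 26, 22 and 18. Of the 26 in bone, 11 were type I interferon targets, where 859 of all 22081 genes in that fit were called. The median of the type I list was 3.01 CPM in bone, against 25.3 in RM1536 a and 3.22 in RM1536 b. The bone library thus lay close to RM1536 b and apart from RM1536 a. Without RM1 b, edgeR called 1 in bone against RM1536 (Osmr, adjusted p = 0.0406, named with its value known).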

How the data were processed

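Whole-number read counts per gene were used as deposited, in 1 table with 6 libraries. Per the submitters' processing notes, the tools were TopHat2 2.1.10, HTSeq and edgeR with genome GRCm38; strand setting, counting mode and annotation release: not given in the sources used here. Per the labels' protocols, libraries were made with the NEBNext Ultra kit. A blank-named row (0.00626% to 0.00830% of counts) was dropped. The main test was that of edgeR 4.0.16 in R 4.3.3 (TMM, filterByExpr, quasi-likelihood test, all 6 libraries in 1 model with 4 groups; 2 residual degrees of freedom, common dispersion 0.0725). Benjamini-Hochberg adjustment ran over all 13832 genes, with calls at 0.05; an SE is the log2 fold change over the square root of F. DESeq2 1.42.0, limma-voom (limma 3.58.1), other filters and scalings, leaving out each culture library and a replicate block were alternatives. Exon lengths and positions came from GENCODE M21 and promoters from RefSeq. The fit was tested on simulated data for RM1536 against RM1 only, with the common dispersion for every gene. Simulated log2 changes of 2 and 3 in size were recovered in 83.7% and 98% of genes. Changes as small as those of the 9 genes were not simulated, and the comparisons with bone or lung were not checked. The 9 genes, the lists and the tests were chosen with earlier results of these data known. Named beside the 9 genes were pathway genes called in any of the 4 comparisons (at most 20), Ifnb1, Ifng and Il10rb, and for genes ranging over at least 1 on the log2 scale the 3 most similar genes; exceptions are marked, and a few genes that the rule or the marker lists hold are not reported here. Intervals cover counting error only.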

Additional observations from a re-analysis of the deposited data

How the results depend on the processing

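Precision is limited by 2 libraries per culture group and 1 per site. No member was called in the 4 comparisons by edgeR; in RM1536 against RM1, there was 1 call with DESeq2 and 2 with edgeR when low counts were not filtered, and no other alternative called any except the crossed block below. Over all genes, DESeq2 called 1471 in RM1536 against RM1, 380 in bone and 359 in lung against RM1536, and 221 in bone against lung. Without a low-count filter the counts were 2394, 859, 1299 and 754, and 2901 for all RM1536 groups against RM1. With a mean of at least 5 CPM they were 345 in RM1536 against RM1, 751 for all RM1536 groups, and 0 in bone against lung. Limma-voom called 0 in bone against RM1536 and 0 in bone against lung. Leaving out 1 culture library gave 196 (without RM1536 b) to 513 (without RM1 b) genes in RM1536 against RM1, 0 to 128 in bone and 0 to 7 in lung against RM1536, 1 to 32 in bone against lung, and 872 to 1281 for all RM1536 groups, where 0 members were then called. The replicate block (letters a and b, 4 culture libraries) called 295 genes and 0 members. Deviations of same-letter libraries ran opposite (correlation -0.438 across genes), which does not settle whether the letters pair the libraries. A crossed replicate block, which paired opposite letters and was added after seeing the data, called 3163 genes and 5 members. Small member differences turned sign: over the sets that left out 1 culture library, Ifngr1 ran from -0.06 (without RM1536 a) to 0.32 in RM1536 against RM1, from -0.19 to 0.19 (without RM1536 a) in lung against RM1536, and from -0.03 (without RM1536 a; -0.01 without RM1 b) to 0.10 in all RM1536 groups; Ifnar2 from -0.04 (without RM1536 b) to 0.23 in bone against RM1536; Tyk2 from -0.15 to 0.03 (without RM1536 b) in all RM1536 groups; and Socs3 in bone against lung, at -0.05 without a filter, 0.00 with the stricter filter (-0.00) and -0.02 with DESeq2, its size factors, and without RM1 a, RM1536 a or RM1536 b. Exon lengths of the basic transcript set moved the mean level per kb to 19.7 for Ifnar1, 10.9 for Ifngr1, 32.3 for Jak1 and 8.80 for Tyk2, and put Socs3 before Jak2 in the order. Of the 13 pathway genes called, 4 kept their call under all alternatives run. The cause of these moves was not tested.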

Other observations

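Among the other SOCS and cytokine receptor genes, 3 chosen after their values were seen differed in the recovered libraries. Their calls depended on the tool and the libraries used. EdgeR with the low-count filter on all 6 libraries, and limma-voom, called 0 of the differences given here. Socs2, an inhibitor of growth hormone receptor signalling, stood at 2.72 CPM in bone and 24.3 in lung, against 2.86 and 0.421 in RM1536, with 3.91 and 13.3 in RM1. The duplicates thus lay far apart in both culture groups. For lung over RM1536 the SE was 1.07 by edgeR and 0.45 by edgeR without the filter. In the fit without the filter Socs2 thus has adjusted p-values that do not measure the spread of its own duplicates. Its log2 fold change of lung over RM1536 was 3.91 (adjusted p = 0.308 by edgeR, 0.0104 by DESeq2 and 2.89e-15 by edgeR without the filter). Bone over lung was -3.16 (adjusted p = 0.594, 0.203 and 2.36e-06 in the same order of tools). Osmr, the oncostatin M receptor chain that pairs with gp130, had 0.439 CPM in bone and 5.05 in lung, against 6.68 and 6.89 in RM1536. Bone over RM1536 was -3.94 (adjusted p = 0.152 by edgeR, 0.0406 by edgeR without RM1 b, 0.000214 by DESeq2 and 2.31e-07 by edgeR without the filter). Ghr, the growth hormone receptor, which signals through JAK2, had 270 CPM in bone and 229 in lung, against 132 and 73.5 in RM1536, with 97.5 and 76.1 in RM1. Bone over RM1536 was 1.39 for Ghr (adjusted p = 0.291 by edgeR, 0.0434 by DESeq2 and 0.000559 by edgeR without the filter), and bone over lung was 0.24 (0.899 by edgeR).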
